A study of Mus musculus with 4 samples.

Results

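Peaks called on mouse chromosome 11 in a crosslinking and immunoprecipitation (CLIP-seq) experiment for the RNA-binding protein Musashi-1 (Msi1) were described along the length of the chromosome. Every listed peak on chromosome 11 was taken, in the build mm9. These were 10818 of 189594 peaks in TRE-Msi1 replicate 1, 2849 of 40776 in TRE-Msi1 replicate 2, 400 of 4863 in wild-type replicate 1 and 420 of 5578 in wild-type replicate 2, or 14487 of 240811 rows over the 4 lists. The chromosome was chosen because its peak density was the highest of the 19 autosomes in each list, so that density is given as a description, without a test. The 2 TRE-Msi1 libraries came from total intestinal epithelial cells of mice that carry a TRE-Msi1 transgene and had received doxycycline for 24 h. The 2 wild-type libraries came from intestinal crypts of control mice that had received none. Genotype, doxycycline and the fraction of cells taken therefore changed together and cannot be told apart. The protocol names 2 individual mice per group, and the sources used here do not name the driver through which the transgene responds to doxycycline. All 4 cell suspensions were irradiated with 2 pulses of 400 mJ per cm2 at 265 nm and precipitated with the same Msi1 antibody, and RNA was taken from a band near 50 kD.

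In CLIP-seq, proteins are crosslinked to RNA with ultraviolet light and precipitated with an antibody, and the RNA fragments that come with them are sequenced and gathered into peaks. Musashi proteins bind short sequences in messenger RNAs, often in their 3′ untranslated regions, and regulate translation. In the intestine they are known from the stem cells at the base of the crypts, and a tetracycline-responsive element (TRE) lets doxycycline switch a transgene on. Mouse chromosome 11 is known as a gene-rich chromosome. Since CLIP-seq reads RNA, peaks are called where RNA is made, on the strand whose sequence the RNA carries. The number of peaks in a stretch can move with how many genes are transcribed there and how strongly. Gene positions and RNA levels were not set beside the peaks here, and positions are given without gene names or sequence because no annotation or genome of mm9 was used. No control precipitation or input library is among the samples, so binding by Msi1 was not shown for any listed peak. For want of an annotation, the epithelial identity of the samples was not checked against marker genes.

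The list of TRE-Msi1 replicate 1 stood apart from the other lists before any comparison was made. Its peaks on chromosome 11 had a median width of 40 bp, against 75 bp in TRE-Msi1 replicate 2, 74 bp in wild-type replicate 1 and 75 bp in wild-type replicate 2. Its scores carried 1 decimal where the other scored lists held whole numbers, and 70.1% of its chromosome 11 peaks lay on the plus strand. Wild-type replicate 1 listed a score of 0 for every peak. The read numbers behind the lists are unknown. Values below are therefore given by library, and some results that rest on TRE-Msi1 replicate 1 are also given without it.

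Chromosome 11 held more peaks per length than any other autosome in all 4 libraries. It makes up 4.93% of the autosomal length but held 5.71% of all listed peaks in TRE-Msi1 replicate 1, 6.99% in TRE-Msi1 replicate 2, 8.23% in wild-type replicate 1 and 7.53% in replicate 2. Per Mb there were 88.8 peaks in TRE-Msi1 replicate 1, 23.4 in TRE-Msi1 replicate 2, 3.28 in wild-type replicate 1 and 3.45 in replicate 2. Divided by the density of the other autosomes in the same list, this was 1.26-fold and 1.50-fold in the TRE-Msi1 lists, against 1.81-fold and 1.63-fold in the wild-type lists. The mean fold was 1.38 ± 0.168 in TRE-Msi1 and 1.72 ± 0.124 in wild-type samples (SD, n = 2 each). Both TRE-Msi1 lists lay below both wild-type lists on this measure. The lists differ widely in length, and when the 3 longer lists were cut to their 4863 highest-scoring peaks the folds were 1.14 in TRE-Msi1 replicate 1, 1.91 in TRE-Msi1 replicate 2 and 1.64 in wild-type replicate 2. TRE-Msi1 replicate 2 then lay above both wild-type lists and TRE-Msi1 replicate 1 below them, so the order of the groups did not hold at equal length. The next densest autosome came close in 3 lists. Chromosome 19 had 22.96 peaks per Mb in TRE-Msi1 replicate 2, 3.23 in wild-type replicate 1 and 3.36 in replicate 2, and chromosome 17 had 78.3 per Mb in TRE-Msi1 replicate 1.

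The high density was spread over many parts of the chromosome and not confined to a few places on it. Divided into 119 bins of 1 Mb, chromosome 11 had a median of 84 peaks per bin in TRE-Msi1 replicate 1, 19 in TRE-Msi1 replicate 2, 2 in wild-type replicate 1 and 3 in replicate 2. The 2306 bins of the other autosomes had medians of 64, 12, 1 and 1 in the same order of lists. At the upper quartile the bins of chromosome 11 held 115 peaks in TRE-Msi1 replicate 1, against 85 elsewhere, and 39 peaks in TRE-Msi1 replicate 2, against 25 elsewhere. Both wild-type lists had an upper quartile of 5 peaks on chromosome 11, against 3 elsewhere. The fullest single bin did not stand out in the same way. It held 200, 112, 19 and 12 peaks on chromosome 11, against 224, 150, 20 and 20 on the other autosomes, so in each of the 4 lists the densest bin of the genome's autosomes lay on another chromosome. Empty bins were fewer on chromosome 11. They made up 2.52% of its bins in TRE-Msi1 replicate 2, against 6.29% elsewhere, 35.3% in wild-type replicate 1, against 47.1% elsewhere, and 17.6% in wild-type replicate 2, against 29.0% elsewhere. TRE-Msi1 replicate 1 left no bin of chromosome 11 empty, and its emptiest bin held 31 peaks. Bins with more peaks than the median bin of the other autosomes were 67.2% of those on chromosome 11 in TRE-Msi1 replicate 1, 63.0% in TRE-Msi1 replicate 2, 50.4% in wild-type replicate 1 and 72.3% in replicate 2. The same shares among the other autosomes' own bins were 49.1%, 48.0%, 37.8% and 48.2%. Bins above the mean bin of the other autosomes were 59.7%, 56.3%, 50.4% and 52.9% of those on chromosome 11, in the same order. Elsewhere they were 39.0%, 41.7%, 37.8% and 32.4%.

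**Figure D1:**
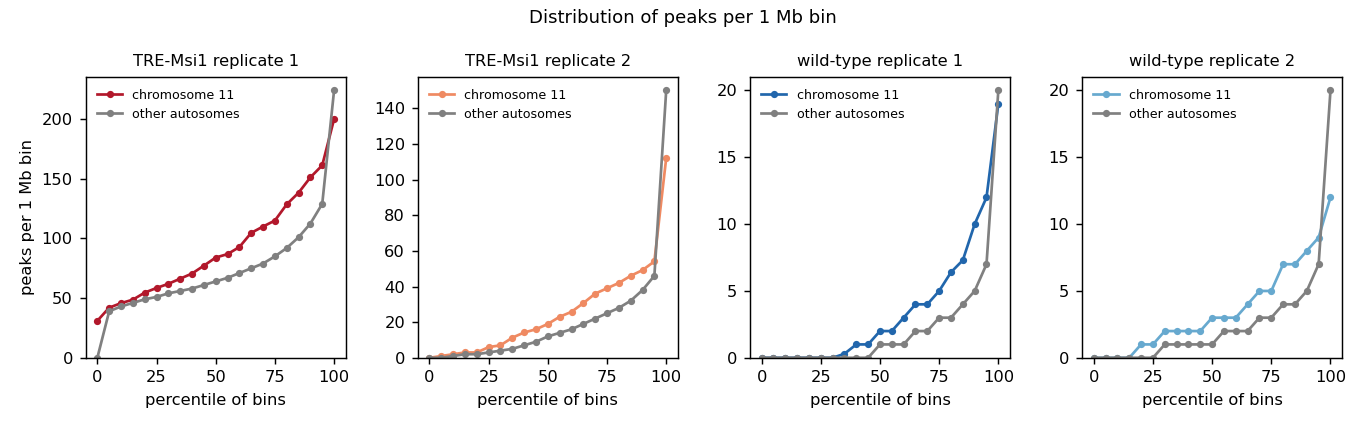
Peaks per 1 Mb bin (y axis) against the percentile of bins (x axis), 1 panel per library, with chromosome 11 in colour and the other autosomes in grey. The coloured line lies on or above the grey one from the 5th to the 95th percentile in each panel and ends below it at the fullest bin.

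Leaving out the densest bins did not remove the excess. The 10 densest bins of each list, which are 8.40% of the bins, held 15.8% of the chromosome 11 peaks in TRE-Msi1 replicate 1, 23.7% in TRE-Msi1 replicate 2, 33.25% in wild-type replicate 1 and 23.1% in replicate 2. The same number of densest bins held medians of 15.4%, 24.1%, 38.2% and 29.0% on the other autosomes, so the shares on chromosome 11 lay near these medians in the TRE-Msi1 lists and below them, but within the range of the other autosomes, in the wild-type lists. When those 10 bins were left out, with as many from each other autosome, the density fold was 1.27 and 1.54 in the TRE-Msi1 lists, against 1.94 and 1.81 in the wild-type lists. The means were 1.41 ± 0.194 in TRE-Msi1 and 1.87 ± 0.0939 in wild-type samples (SD, n = 2 each), no lower than with all bins. Even with the 60 densest bins left out on both sides, the fold was 1.12 in TRE-Msi1 replicate 1, 1.42 in TRE-Msi1 replicate 2, 1.42 in wild-type replicate 1 and 1.94 in replicate 2. Only 17 and 67 peaks remained in the wild-type lists at that point. An autosome of 60 bins or fewer was not part of that comparison, and short autosomes kept few of their bins, so the other autosomes were not the same set as before. Against the other autosomes left whole, the excess of chromosome 11 lasted until 20 to 40 of its 119 bins had been left out. In TRE-Msi1 replicate 1 the ratio was 1.01 without 30 bins and 0.936 without 40. In TRE-Msi1 replicate 2 it was 1.08 without 20 bins and 0.913 without 30. Wild-type replicate 1 reached 0.988 without 20 bins, and wild-type replicate 2 had 1.16 without 20 and 0.950 without 30. The share in the 10 densest bins averaged 19.8% ± 5.56 in TRE-Msi1 and 28.2% ± 7.18 in wild-type samples (SD, n = 2 each). The difference, -8.41 percentage points, was within the spread of the replicates (two-sided exact permutation test, p = 0.667, where 2 against 2 libraries cannot go below 0.333), and the groups overlapped. Cut to equal length, the lists gave 28.4% and 32.9% in TRE-Msi1 and 33.25% and 24.9% in wild-type samples, a difference of 1.58 percentage points in the other direction.

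Long stretches showed where the excess lay. Of 13 segments of up to 10 Mb, 9 had more peaks per Mb than the other autosomes in all 4 lists. The segment from 70 to 80 Mb stood highest among the full segments, at 1.79-fold in TRE-Msi1 replicate 1, 2.97-fold in TRE-Msi1 replicate 2, 3.41-fold in wild-type replicate 1 and 2.51-fold in replicate 2. From 50 to 60 Mb and from 80 to 110 Mb the folds lay between 1.42 and 3.19 in every list. Only 2 segments were below the other autosomes in all 4 lists. The segment from 10 to 20 Mb had 0.882, 0.469, 0.826 and 0.710 times their density, in the order of TRE-Msi1 replicates 1 and 2 and wild-type replicates 1 and 2, and that from 30 to 40 Mb had 0.831, 0.880, 0.661 and 0.663 times. The segment from 40 to 50 Mb lay below the other autosomes in the TRE-Msi1 lists (0.916 and 0.668) and above them in the wild-type lists (1.32 and 1.42), on 24 and 30 wild-type peaks. At this scale the proximal and central parts of the chromosome were thus mixed. The segments from 50 Mb onward lay above the other autosomes, apart from 110 to 120 Mb in wild-type replicate 1 (0.881). Single bins within these segments could still be sparse in every list. The bin from 64 to 65 Mb had 0.671, 0.0630, 0 and 0 times the mean bin of the other autosomes, in the same order of lists. That from 81 to 82 Mb had 0.587, 0, 0 and 0 times.

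**Figure D2:**
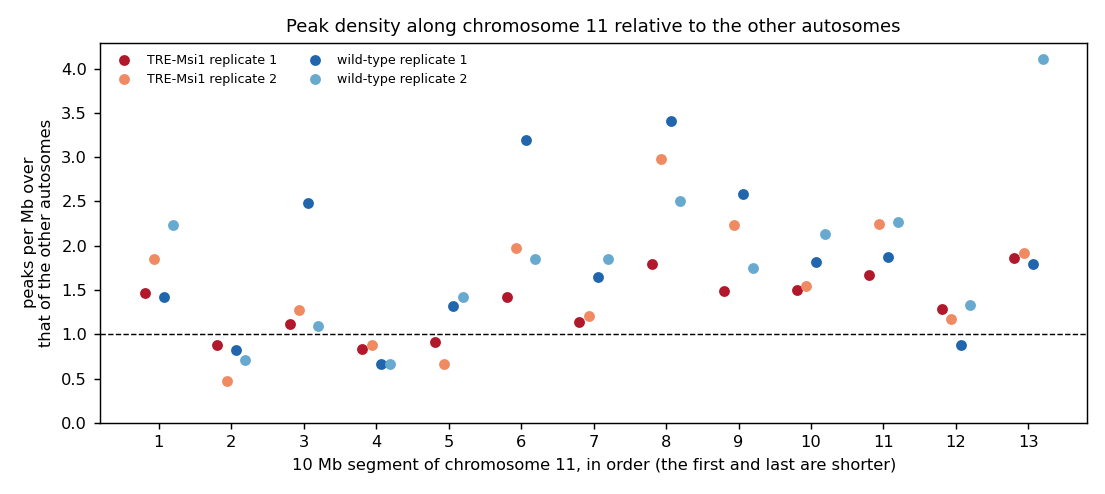
Peaks per Mb in each 10 Mb segment of chromosome 11, in order along the chromosome, divided by the density of the other autosomes in the same list (dashed line at 1), with 1 point per library. In segments 2 and 4 all 4 points lie below the line, and in 9 of 13 segments all 4 lie above it.

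Bins that were dense in several lists lay scattered over the chromosome. At least 2 times the mean of the other autosomes' bins was reached in at least 3 lists by 24 of the 119 bins (20.2%), against 142 of 2306 bins elsewhere (6.16%). These 24 bins formed 19 separate runs, none longer than 2 Mb. The 5 runs of 2 bins were at 74 to 76, 79 to 81, 97 to 99, 100 to 102 and 115 to 117 Mb. The run at 74 to 76 Mb held 297 and 113 peaks in the TRE-Msi1 lists, against 20 and 12 in the wild-type lists. The run at 97 to 99 Mb held 337 and 92 peaks in the TRE-Msi1 lists, against 10 and 17 in the wild-type lists. Among the 100 densest autosomal bins of each list, with ties, chromosome 11 supplied 18.9% in TRE-Msi1 replicate 1, 12.6% in TRE-Msi1 replicate 2, 13.6% in wild-type replicate 1 and 14.3% in replicate 2, while it holds 4.91% of the bins.

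**Figure D3:**
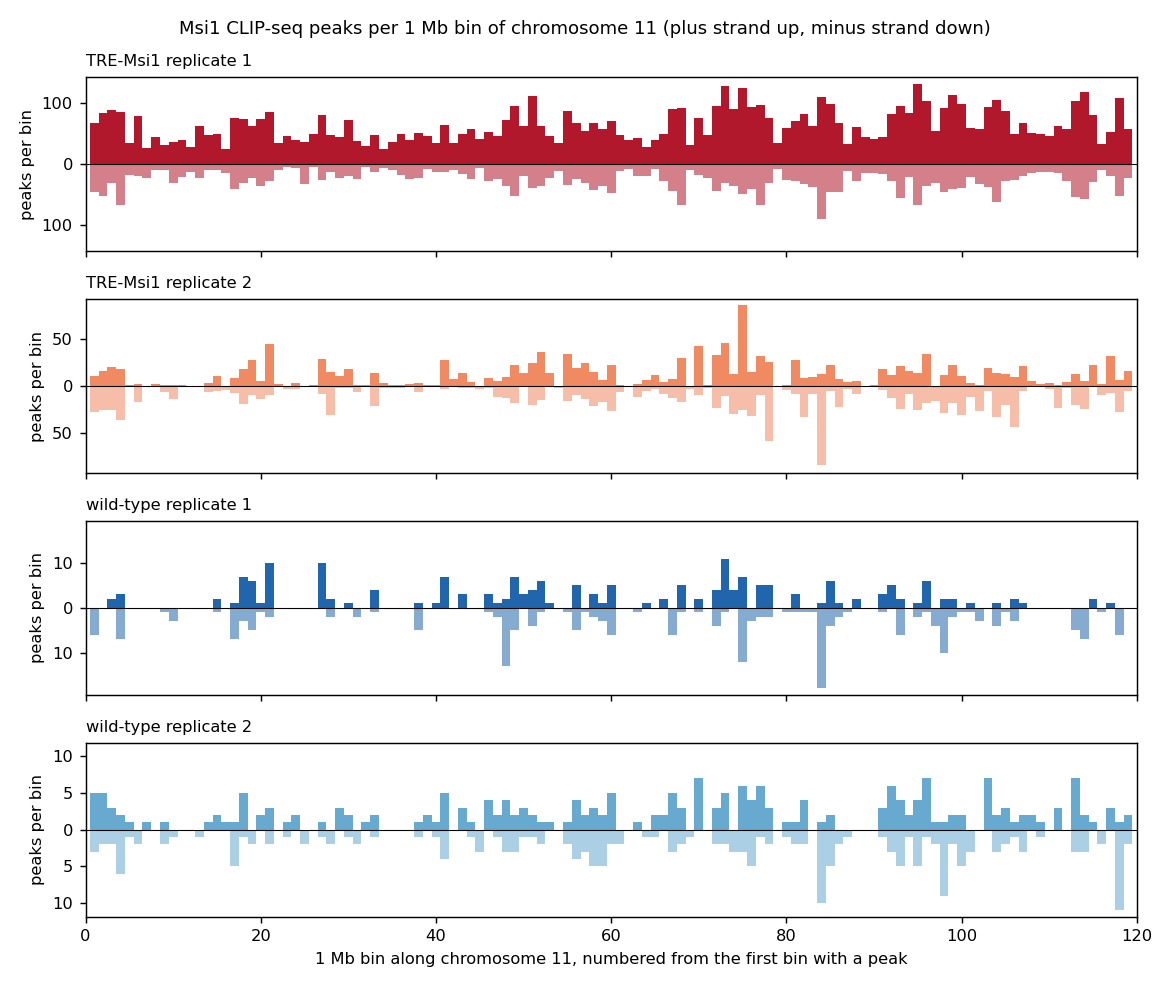
Peaks per 1 Mb bin along chromosome 11 (x axis, bins numbered from the first bin with a peak), 1 panel per library, with plus-strand peaks drawn upward and minus-strand peaks downward on separate scales per panel. The 119 bins of TRE-Msi1 replicate 1 hold 31 to 200 peaks each and lean to the plus strand, while the other 3 lists show separate high bins on either strand.

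The densest bin over the 4 lists ran from 86 to 87 Mb. It held 200 and 97 peaks in the TRE-Msi1 lists, against 19 and 11 in wild-type lists, and was the 2nd, 3rd, 3rd and 19th densest of all autosomal bins in those lists. Its peaks came mostly from the minus strand in 3 lists: 84 of 97 in TRE-Msi1 replicate 2, 18 of 19 in wild-type replicate 1 and 10 of 11 in wild-type replicate 2. The minus strand held 90 of 200 in TRE-Msi1 replicate 1. These peaks did not sit in one place. Joining peaks of 1 strand that lay up to 1 kb apart left 142 loci in TRE-Msi1 replicate 1, 73 in TRE-Msi1 replicate 2, 11 in wild-type replicate 1 and 10 in replicate 2. The shortest window that held 42 of the 84 minus-strand peaks of TRE-Msi1 replicate 2 was 297 kb long (chr11:86314439-86611216).

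The bin from 77 to 78 Mb held 173 and 112 peaks in the TRE-Msi1 lists, against 19 and 9 in the wild-type lists. It was the fullest bin of the chromosome in TRE-Msi1 replicate 2 and tied with the 86 to 87 Mb bin in wild-type replicate 1. The strands differed between lists there. The plus strand led with 125 of 173 and 86 of 112 peaks in the TRE-Msi1 lists and 6 of 9 in wild-type replicate 2, but the minus strand led with 12 of 19 in wild-type replicate 1. The bin from 75 to 76 Mb had 158 and 57 peaks in the TRE-Msi1 lists, against 12 and 7 in wild-type lists, and the plus strand led in each list (128 and 46, against 11 and 5). Here the windows were narrower. In TRE-Msi1 replicate 2, 23 of the 46 plus-strand peaks fell within 73.3 kb (chr11:75497192-75570475), and in wild-type replicate 1, 6 of 11 fell within 73.3 kb (chr11:75505840-75579101), an interval that overlaps it.

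The bin from 100 to 101 Mb held 138 and 41 peaks in the TRE-Msi1 lists, against 12 and 10 in the wild-type lists. The minus strand led there in TRE-Msi1 replicate 2 (29 of 41) and in both wild-type lists (10 of 12 and 9 of 10). The bin from 6 to 7 Mb had 152 and 54 peaks, against 10 and 8 in wild-type lists, and 36 of the 54 in TRE-Msi1 replicate 2 were on the minus strand. Both bins ranked among the 10 densest of the chromosome in wild-type replicate 1, and TRE-Msi1 replicate 2 placed only the second of them there (7th, against 26th for 100 to 101 Mb).

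The bin from 50 to 51 Mb was named mainly through wild-type replicate 1. It held 109 and 23 peaks in the TRE-Msi1 lists, against 15 and 7 in wild-type lists, and ranked 38th and 53rd of 119 in the TRE-Msi1 lists, against 3rd and 17th in the wild-type lists. In wild-type replicate 1, 7 of its 13 minus-strand peaks lay within 4.70 kb (chr11:50107995-50112693), and in TRE-Msi1 replicate 2, 7 of 13 lay within 13.2 kb that begin inside that stretch (chr11:50109186-50122348). In wild-type replicate 2 the plus strand led with 4 of 7 peaks.

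The other 4 named bins had between 114 and 161 peaks in TRE-Msi1 replicate 1, between 34 and 55 in TRE-Msi1 replicate 2, between 6 and 12 in wild-type replicate 1 and between 5 and 12 in wild-type replicate 2. They run from 23 to 24, 62 to 63, 95 to 96 and 120 to 121 Mb. The bin from 23 to 24 Mb leaned to the plus strand in all 4 lists, with 86 of 114 and 45 of 55 peaks in the TRE-Msi1 lists, against 10 of 12 and 3 of 5 in the wild-type lists. The bin from 120 to 121 Mb leaned to the minus strand outside TRE-Msi1 replicate 1, with 28 of 34 peaks in TRE-Msi1 replicate 2, against 6 of 6 and 11 of 12 in the wild-type lists. It was the fullest bin of wild-type replicate 2. In wild-type replicate 1, 3 of its 6 peaks lay within 0.622 kb (chr11:120421834-120422455).

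Together the 10 named bins held 13.6% of the chromosome 11 peaks of TRE-Msi1 replicate 1 and 19.9% of those of TRE-Msi1 replicate 2, against 31.0% and 20.2% in wild-type replicates 1 and 2. They were chosen by their mean share over the 4 lists, and wild-type replicate 1, the most concentrated list, weighed most in that choice: 8 of the 10 were among its own densest bins (14 with ties), against 4 and 5 in the TRE-Msi1 lists and 5 in wild-type replicate 2. The plus strand held 66.2% of the peaks in these bins in TRE-Msi1 replicate 1 and 49.1% in replicate 2, against 34.7% and 37.6% in the wild-type lists.

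**Figure D4:**
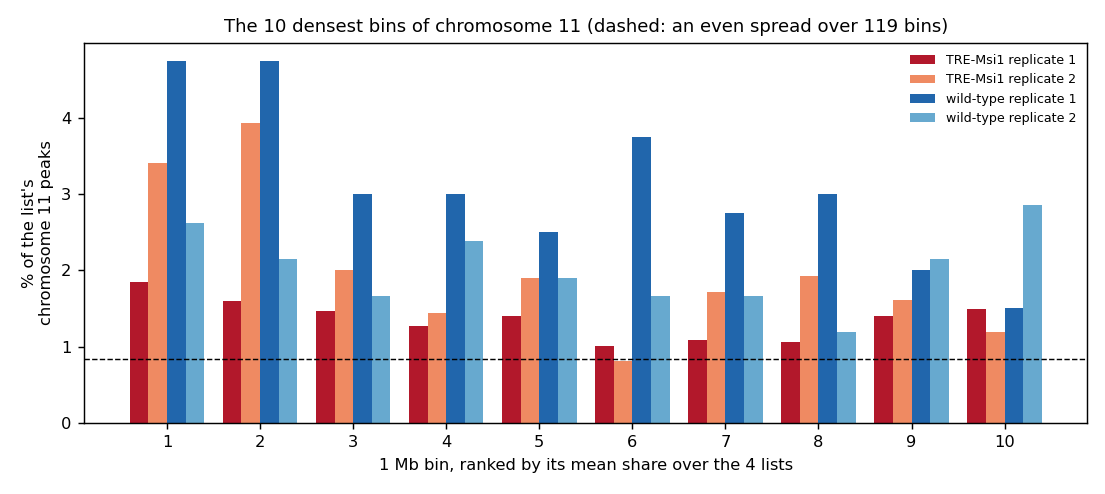
Share of each list's chromosome 11 peaks (y axis, percent, from 0) in the 10 named bins, ranked by their mean share, with 1 bar per library and a dashed line at the share of 1 bin if peaks were spread evenly over 119 bins. TRE-Msi1 replicate 1 has between 1.01% and 1.85% in each of these bins, and wild-type replicate 1 reaches 4.75% in the first 2.

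The empty end of the distribution was also shared between lists. Wild-type peaks were lacking in both lists from 18 bins, which formed 13 stretches. No share on the other autosomes was set beside this count. The longest was 36 to 40 Mb, with 207 peaks in TRE-Msi1 replicate 1 and 14 in replicate 2. The stretch from 91 to 93 Mb had 114 and 3 TRE-Msi1 peaks, and that from 13 to 15 Mb had 100 and 2. These regions were thus nearly empty in TRE-Msi1 replicate 2 as well, and carried peaks mainly in TRE-Msi1 replicate 1. The bin from 81 to 82 Mb was the only one with peaks in a single list, 42 in TRE-Msi1 replicate 1. At the other end, 74 of the 119 bins had at least 1 peak in every list, against 1221 of 2589 bins over all chromosomes.

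Bins rich in peaks in one list tended to be rich in the others. Over the 119 bins, Spearman's rho was 0.801 between the TRE-Msi1 lists and 0.683 between the wild-type lists. Between the groups it was 0.692 and 0.748 for TRE-Msi1 replicate 1 with wild-type replicates 1 and 2, and 0.766 and 0.750 for TRE-Msi1 replicate 2. The medians over the other autosomes were 0.626 between the TRE-Msi1 lists, 0.606 between the wild-type lists, 0.580 and 0.488 for TRE-Msi1 replicate 1 with the wild-type lists and 0.757 and 0.688 for TRE-Msi1 replicate 2. In the 3 pairs with TRE-Msi1 replicate 1, chromosome 11 had the highest value of the 19 autosomes, and for TRE-Msi1 replicate 2 with wild-type replicate 1 it was the 10th. These values describe bins that share the genes and sequence of 1 chromosome. They are not independent points, and bins with few peaks tie often in the wild-type lists.

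Both strands of chromosome 11 carried the excess. The density fold over the other autosomes was 1.25 on the plus and 1.30 on the minus strand in TRE-Msi1 replicate 1, and 1.47 and 1.54 in TRE-Msi1 replicate 2. It was 1.67 on the plus and 1.96 on the minus strand in wild-type replicate 1, and 1.68 and 1.58 in wild-type replicate 2. The plus strand held 70.1% of the chromosome 11 peaks in TRE-Msi1 replicate 1 (95% Wilson interval 69.2 to 70.9) and 49.8% (47.9 to 51.6) in TRE-Msi1 replicate 2, against 47.5% (42.7 to 52.4) in wild-type replicate 1 and 52.1% (47.4 to 56.9) in wild-type replicate 2. The intervals cover counting error only and treat peaks as independent. The plus-strand lean of TRE-Msi1 replicate 1 was as large elsewhere, at 70.8% on the other autosomes. The group means were 59.9% ± 14.4 in TRE-Msi1 and 49.8% ± 3.28 in wild-type samples (SD, n = 2 each), a difference of 10.1 percentage points that was within the replicate spread (two-sided exact permutation test, p = 0.667). Without TRE-Msi1 replicate 1 the difference was -0.0496 percentage points.

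Within a bin the strands were used unevenly, in a way that a chromosome-wide share does not show. In TRE-Msi1 replicate 2, 79 bins held at least 10 peaks, and their plus-strand share ran from 0% to 100% with a median of 48.0%. In TRE-Msi1 replicate 1 all 119 bins had more plus than minus peaks, with shares of 52.9% to 92.0%. Across bins, the plus and minus counts had a Spearman's rho of 0.798 in TRE-Msi1 replicate 1 and 0.502 in replicate 2, against 0.396 and 0.341 in the wild-type lists (n = 119 bins of 1 chromosome, with no test). The strands went together most closely in TRE-Msi1 replicate 1, the longest list. The number of peaks per bin also differs between these lists, and its part in these values was not tested.

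The density was also counted in loci in place of peaks. Peaks of 1 strand up to 1 kb apart were joined, which left 8875 and 2289 loci in the TRE-Msi1 lists, against 306 and 392 in the wild-type lists. Each locus held 1.22 and 1.24 peaks on average in the TRE-Msi1 lists, against 1.31 and 1.07 in wild-type lists, and on the other autosomes it held 1.23 and 1.21, against 1.23 and 1.06. Counted in loci, the density fold was 1.27 and 1.46 in the TRE-Msi1 lists, against 1.71 and 1.61 in the wild-type lists, close to the folds in peaks. The largest locus of a list held 14 peaks in TRE-Msi1 replicate 1, 10 in TRE-Msi1 replicate 2, 6 in wild-type replicate 1 and 4 in replicate 2. The 10 largest loci of each list held 1.07% and 2.32% of the chromosome 11 peaks in the TRE-Msi1 lists, against 11.5% and 6.43% in the wild-type lists. Loci of a single peak were 88.2% and 83.7% of the loci in the TRE-Msi1 lists, against 81.0% and 94.6% in the wild-type lists. Loci of more than 1 peak held 27.6% and 32.8% of the chromosome 11 peaks in the TRE-Msi1 lists, against 38.0% and 11.7% in the wild-type lists. On the other autosomes such loci held 27.5% and 28.5%, against 32.4% and 9.73%. The part of crowding in the density, within 1 kb or over longer stretches, was not tested.

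Joining the 4 lists gave 10831 loci on chromosome 11, and few were common to the lists. A peak of a single list made up 10166 of them, 467 had peaks of 2 lists, 140 of 3 lists and 58 of all 4. TRE-Msi1 replicate 1 joined by itself had 8875 loci, so that list weighs most in these counts. Those 58 loci held 2.20% of the chromosome 11 peaks of TRE-Msi1 replicate 1 and 6.67% of those of TRE-Msi1 replicate 2, against 28.5% in wild-type replicate 1 and 19.8% in replicate 2. The locus with the largest mean share was chr11:20124386-20126740 on the plus strand, with 7 and 3 peaks in the TRE-Msi1 lists, against 5 and 3 in the wild-type lists. The next was chr11:87793367-87795030 on the minus strand, with 5 and 3 peaks, against 4 and 4 in the wild-type lists. It lies in the bin beside the densest one and not inside it.

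Some loci were uneven between the lists. The locus chr11:50107995-50109698 on the minus strand held 10 and 3 peaks in the TRE-Msi1 lists, against 6 and 1 in wild-type lists, and lies in the 50 to 51 Mb bin. The locus chr11:87862652-87865845 on the plus strand held 9 and 7 peaks in the TRE-Msi1 lists, against 5 and 1 in the wild-type lists. The locus chr11:43072949-43075794 on the plus strand had 12 and 5 peaks in the TRE-Msi1 lists, against 5 and 0 in wild-type lists, and is the only one of the 10 leading loci that a list missed. The locus chr11:48614428-48616779 on the plus strand held 1 and 3 peaks in the TRE-Msi1 lists, against 2 and 4 in the wild-type lists. These are raw counts of lists that differ in length. The other 4 leading loci were chr11:19962302-19964754 and chr11:120421834-120425158 on the minus strand and chr11:62416591-62418216 and chr11:77523406-77530981 on the plus strand. All 10 together held 70 and 44 peaks in the TRE-Msi1 lists, against 41 and 23 in the wild-type lists, which was 0.647% and 1.54% of the chromosome 11 peaks, against 10.25% and 5.48%. Only 4 of the 10 lay in the named bins.

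The TRE-Msi1 lists shared few exact positions on chromosome 11. Counting same-strand overlap of at least 1 bp, 203 of the 2849 peaks of TRE-Msi1 replicate 2 met a peak of TRE-Msi1 replicate 1, which is 7.13% (95% Wilson interval 6.24 to 8.13), against 5.55% (5.32 to 5.79) on the other autosomes. Seen from TRE-Msi1 replicate 1, 1.81% of its peaks met one of TRE-Msi1 replicate 2, against 1.19% elsewhere. Both shares were the highest of the 19 autosomes, with TRE-Msi1 replicate 2 between 4.72% and 6.75% on the others. The share of TRE-Msi1 replicate 2 peaks that met wild-type replicate 1 was 5.02%, against 3.68% elsewhere, and also ranked 1st. The share that met wild-type replicate 2 was 2.39%, against 2.13% elsewhere, and ranked 6th. Where peaks lie closer together more of them meet by position alone, and the part of the density in these shares was not tested.

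Wild-type peaks on chromosome 11 met other lists about as often as elsewhere. Of the 400 peaks of wild-type replicate 1, 45.0% met TRE-Msi1 replicate 1, against 42.7% on the other autosomes, and 34.0% met TRE-Msi1 replicate 2, against 30.7%, both differences being within the 95% Wilson intervals of the chromosome 11 shares (40.2 to 49.9 and 29.5 to 38.8). Only 42 of them, 10.5%, met wild-type replicate 2, against 10.6% elsewhere. Wild-type replicate 2 had 10.0% of its 420 peaks in TRE-Msi1 replicate 1 and 15.7% in replicate 2. Wild-type replicate 1 therefore met both TRE-Msi1 lists more often than the other wild-type list, which is far shorter than they are. Peaks found in no other list were 96.9% in TRE-Msi1 replicate 1 and 89.1% in replicate 2, against 36.0% in wild-type replicate 1 and 77.9% in replicate 2.

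**Figure D5:**
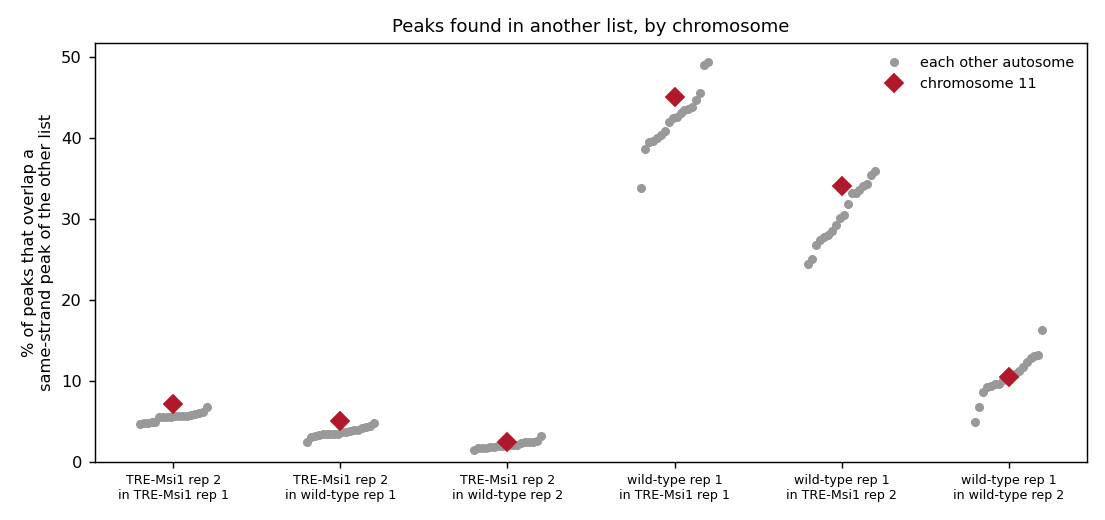
Share of peaks (y axis, percent) that overlap a same-strand peak of another list, for 6 ordered pairs of lists (x axis), with a diamond for chromosome 11 and a grey dot for each other autosome, sorted within a pair. Chromosome 11 has the highest share for TRE-Msi1 replicate 2 in TRE-Msi1 replicate 1 (7.13%) and in wild-type replicate 1 (5.02%) and lies among the other autosomes in the other 4 pairs.

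Peaks that met all 3 other lists were rare. In TRE-Msi1 replicate 2 they were 14, or 0.491% of its chromosome 11 peaks (95% Wilson interval 0.293 to 0.823), against 0.333% on the other autosomes. Seen from TRE-Msi1 replicate 1 they were 8, and from wild-type replicates 1 and 2 they were 14 and 15. The peaks met in the other lists need not overlap each other. The 14 peaks of TRE-Msi1 replicate 2 lay in 13 different bins, and 8 of the 14 (57.1%) fell in the 10 named bins. Those bins held 19.9% of all chromosome 11 peaks of TRE-Msi1 replicate 2. They held 34.5% of the peaks shared by the TRE-Msi1 lists and 42.9% of those shared by the wild-type lists. The bins were chosen as dense in these same 4 lists, so the count is a description. The site with the highest mean score percentile over the TRE-Msi1 lists was chr11:120422429-120422503 on the minus strand, scored 5.0 in TRE-Msi1 replicate 1, 29 in TRE-Msi1 replicate 2 and 4 in wild-type replicate 2. Scores are the authors' own, in a unit the files do not state, and can be ranked only within a list. This site was in the top 2.5% of both TRE-Msi1 lists (98.6th and 97.9th percentile of replicates 2 and 1) but at the 30.9th percentile of wild-type replicate 2. The second, chr11:95942476-95942550 on the plus strand, scored 9.9 in TRE-Msi1 replicate 1, 19 in TRE-Msi1 replicate 2 and 58 in wild-type replicate 2, and was high in all 3 (99.7th, 96.2nd and 98.9th percentile). The site chr11:62416613-62416687 on the plus strand had the highest score of the 14 in TRE-Msi1 replicate 2, 72, with 2.9 in TRE-Msi1 replicate 1 and 15 in wild-type replicate 2.

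Over the scored lists, the first site had the lowest percentile of the 10 leading ones, 30.9 in wild-type replicate 2. The lowest percentiles of the leading sites not yet named ran from 50.8 to 79.2. On the minus strand they were chr11:50121762-50121836, chr11:19962561-19962635, chr11:115884031-115884105, chr11:87794478-87794552, chr11:100002841-100002915 and chr11:69482343-69482417, and on the plus strand chr11:74133416-74133490. The site chr11:87794478-87794552 scored 51 in TRE-Msi1 replicate 2 and 21 in wild-type replicate 2, both above the 95th percentile, but 2.1 in TRE-Msi1 replicate 1, at the 66.2nd percentile. Sites high in TRE-Msi1 replicate 2 were thus not always high in TRE-Msi1 replicate 1. Of the 10 leading sites, those at 120422429, 19962561, 62416613 and 87794478 lie inside leading loci. Sites and loci were both taken from the same peaks, so this overlap is partly built in and is given as a description. All 14 sites rest on overlaps of at least 1 bp between peaks of 40 and about 75 bp, and with a reciprocal overlap of 50% only 1 of them was left.

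Of the 203 peaks shared by the TRE-Msi1 lists, 75 also met a wild-type peak, 68 of them in wild-type replicate 1 and 21 in replicate 2. The other 128, or 125 distinct intervals in 53 bins, met none. That is 63.1% of the shared peaks, against 65.6% on the other autosomes. A wild-type peak on the same strand lay within 500 bp of 42 of the 128 (32.8%), against 37.6% on the other autosomes. Over distinct intervals, 41 of the 125 had one within 500 bp, the median distance was 2395 bp, 40 lay over 10 kb away and 14 over 100 kb away. The one with the highest mean score percentile over both lists, chr11:99290194-99290268 on the minus strand, scored 7.1 in TRE-Msi1 replicate 1 and 51 in replicate 2, and its nearest wild-type peak was only 9 bp away. The next, chr11:6368169-6368243 on the minus strand, scored 3.4 and 24 with a wild-type peak at 369 bp, and chr11:75578763-75578837 on the plus strand scored 3.1 and 54 with one at 135 bp. The site chr11:33052473-33052547 on the minus strand, with scores of 3.9 and 12, stood alone, its nearest wild-type peak being 417180 bp away. The last of the 5, chr11:3542590-3542664 on the minus strand, scored 3.1 and 15 and had a wild-type peak at 869 bp. Of these 5 sites, picked by the mean percentile, 4 had a wild-type peak within 1 kb. A pick by the score of a single list would name others: chr11:68854742-68854816, chosen after its values were seen, had the highest score of the 125 in TRE-Msi1 replicate 1 (17.8), and its nearest wild-type peak was 351181 bp away.

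Whether bins differed between the groups was tested with limma, on the log2 of peaks per 1000 listed peaks plus 0.1, over 2458 bins of all chromosomes. No bin passed an adjusted p under 0.05 (0 of 2458, or 0%, with 89 at an unadjusted p under 0.05), and of the 118 bins of chromosome 11 tested, 0 passed, with 4 at an unadjusted p under 0.05. The log2 difference of TRE-Msi1 over wild-type had a median of 0.14 on chromosome 11 and of 0.41 over all bins, and ran from -1.63 to 1.87 on chromosome 11, with 67 bins above 0 and 51 below. The direction of the chromosome 11 median depended on the setting: it was -0.13 without TRE-Msi1 replicate 2, -0.21 without wild-type replicate 1 and -0.39 with a peak required in every list. The bin from 50 to 51 Mb had the lowest value, -1.63 (SE 0.62, limma adjusted p = 0.597). The highest, 1.87 (SE 0.88, limma adjusted p = 0.597), was at 114 to 115 Mb, where the TRE-Msi1 lists had 84 and 6 peaks and the wild-type lists none. The wild-type value there is the pseudocount alone, so the size of this difference and its place as the highest are set by the added 0.1.

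The groups did not overlap in 53 of the 118 bins. In 27 bins (22.9%) both TRE-Msi1 lists had the larger share of their peaks, against 30.6% of all bins tested, and in 26 bins (22.0%) both had the smaller share, against 11.2% of all bins tested. Of the 27 higher bins, 17 had no wild-type peak at all, against 506 of 753 over all bins tested, so that a peak in both TRE-Msi1 lists was enough to place them there. All 10 named bins had values below 0, with a median log2 difference of -0.74, and the groups did not overlap in 6 of them. Since wild-type peaks had a large part in choosing those bins, this direction is a description. Among bins with at least 1 peak per 1000 on average over the 4 lists, the groups did not overlap, with TRE-Msi1 lower, in 14 of 26 on chromosome 11 and in 77 of 155 over all chromosomes, so 6 of 10 is near the share of rich bins. The median log2 difference of these rich bins was -0.68 on chromosome 11 and -0.75 over all chromosomes. Without wild-type replicate 2, 174 bins passed, 8 of them on chromosome 11, and without wild-type replicate 1, 27 passed, 1 of them on chromosome 11, while leaving out either TRE-Msi1 library gave 0. In each of these fits the group with 1 sample is assumed to vary like the other pair, and in simulated data the test made false calls in bins with few peaks, so nothing is read from these counts.

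The scores placed the excess of chromosome 11 differently in each list. In TRE-Msi1 replicate 1 the density fold was 1.21 among the upper 25% of peaks by score, 1.28 in the middle and 1.29 in the lower class. In TRE-Msi1 replicate 2 it was 1.73, 1.50 and 1.34, and in wild-type replicate 2 it was 1.42, 2.07 and 1.56. Thus higher-scoring peaks favoured chromosome 11 in TRE-Msi1 replicate 2 and not in TRE-Msi1 replicate 1, and every class of the 3 lists lay above 1. The median score on chromosome 11 was 1.8 in TRE-Msi1 replicate 1, 7 in TRE-Msi1 replicate 2 and 6 in wild-type replicate 2, against 1.8, 6 and 6 on the other autosomes.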

How the data were processed

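The deposited files are 1 peak list per library, with chromosome, start, end, strand and a score. Bowtie, HOMER and the build mm9 are named in the submitters' processing notes. The sources used here give neither their versions, settings and roles nor whether settings differed between libraries. The score deposited by the authors has no stated unit and was used only within a list. Rows of 1 score run by chromosome, so ties were broken at random for ranks and kept whole for score classes, and wild-type replicate 1, whose scores are 0, was ranked by row order.

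Peaks were placed by midpoint into 1 Mb bins from the first to the last bin with a peak in any list, and chromosome lengths are the highest peak end in any list. Peaks overlapped if they shared a strand and at least 1 bp, and the counts equalled those of bedtools in 12 of 12 comparisons. Coordinates are 1-based. Bins with a peak in at least 2 lists were tested with limma (lmFit, eBayes with trend) on log2(peaks per 1000 listed peaks + 0.1), with Benjamini-Hochberg adjustment over all bins. On simulated data this fit made false calls in bins with few peaks, so an alternative with a minimum mean was added. Shares carry 95% Wilson intervals. The permutation p-values measure the spread between 2 samples per group. Those of limma also draw the variance of a bin from a trend over all bins.

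Named were the 10 densest bins by mean share over the lists and the 10 loci with the largest mean share. Among TRE-Msi1 replicate 2 peaks that met all 3 other lists, the 10 highest by mean score percentile in the TRE-Msi1 lists were named. Of those that met TRE-Msi1 replicate 1 but no wild-type peak, the 5 highest were named. The chromosome, these rules and the tests were chosen with earlier results of these data known. Libraries with the same replicate number did not deviate together (correlation -0.19 over 2458 bins), so the numbers were not taken to pair the samples. Gene lists and cell markers need an annotation of mm9. None was used here, and no coordinate was moved to another build. Alternatives were the upper 25% of each list, equal list lengths, other bin sizes, joined peaks, other overlap rules, pseudocounts and filters, a replicate block and leaving out each library. The tools were limma 3.58.1 in R 4.3.3, bedtools 2.31.1, matplotlib 3.10.9 and scipy 1.17.1 with pandas 2.3.3 and numpy 2.4.6 in Python 3.11.15.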

Additional observations from a re-analysis of the deposited data

How the results depend on the processing

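Leaving out 1 library at a time leaves the value of the other library of its group. The density fold of chromosome 11 was then 1.26 to 1.50 in TRE-Msi1 and 1.63 to 1.81 in wild-type samples. Without the 10 densest bins it was 1.27 to 1.54 in TRE-Msi1 and 1.81 to 1.94 in wild-type samples. A fold above 1 with all bins followed from the choice of the chromosome as the densest in each list. With the upper 25% of each list, the wild-type fold was 1.85, and 2.43 without the densest bins. Wild-type replicate 1, cut by row order for want of scores, gave 2.28 and 3.19 of these, and wild-type replicate 2, cut by score, 1.42 and 1.66. With 2 Mb bins the wild-type fold without the densest bins was 1.78, and with lists of equal length that of TRE-Msi1 was 1.63. The share in the 10 densest bins differed by -13.5 to -3.34 percentage points when 1 library was left out and turned to 1.58 with lists of equal length. The plus-strand difference was -0.0496 to 20.2 percentage points when 1 library was left out, and turned without TRE-Msi1 replicate 1. With a replicate block limma called 0 bins, and the differences stayed at -8.41 and 10.1 percentage points, as the mean of pair differences must. An exact test that flips the signs of the 2 pair differences gave p = 1.0 for each. With 2 pairs this p can take few values, so nothing is read from it. Same-numbered libraries shared only a number, and pairing them in the crossed order, an alternative chosen after seeing the data, gave 9 called bins, 1 of them on chromosome 11.

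Called bins numbered 1 with a peak required in every list, 1 with 2 Mb bins and 1 with the added minimum mean, none on chromosome 11, and 0 to 174 (chromosome 11: 0 to 8) with 1 library left out, where 1 group rests on a lone sample. Exact positions depended on the overlap rule. The TRE-Msi1 pair shared 66 peaks with a reciprocal overlap of 50%, 622 within 500 bp and 62 in the upper 25%, and those without a wild-type peak were 51, 343 and 36 under these rules. TRE-Msi1 replicate 2 peaks that met all 3 other lists were 1, 68 and 2. With 1 list left out, 20 to 68 peaks met all the remaining lists, and 28 did so without TRE-Msi1 replicate 1. The wild-type pair shared 93 within 500 bp and 14 in the upper 25%. Wild-type replicate 1 was cut to its upper 25% by row order, so counts there that involve it need not be of stronger peaks. Counts that need both libraries of a group have no value with 1 left out. The causes were not tested, apart from the looser or stricter rules themselves. The unknown read numbers limit every comparison of list lengths, and 400 and 420 peaks limit the wild-type values per bin.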
